A study of Mus musculus with 11 samples.

Results

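The stellate cell and extracellular matrix genes described here are a fixed list of 39 genes that build, modify or anchor the matrix of the liver or mark the cells that make it. A gene was represented by the array row annotated to it alone, and 37 of the 39 had such a row, out of 30142 genes with 1 in all. Loxl2 and Pdgfra had none and are not analysed here. The list was drawn up by gene function, but with earlier results of these data known, so its shares of called genes are no independent support. RNA of isolated hepatocytes from male mice aged 12 weeks was measured on 11 whole-transcript expression arrays in 4 genotypes. In the double KO group (n = 3) Nemo was deleted in a liver-specific way and Cxcr6 was knocked out as well, with the source name giving the Nemo_CXCR6 line with Cre. The Nemo KO group (n = 3) carried the liver-specific Nemo deletion alone, in the Nemo line with Cre. The Cxcr6 KO group (n = 3) lacked Cxcr6 and came from the Nemo_CXCR6 line without Cre, and the wildtype group (n = 2) came from the Nemo line without Cre. Nemo status was therefore compared within a line, while Cxcr6 status and mouse line cannot be told apart. The promoter that drives Cre, the pooling of animals and the purity of the hepatocyte isolation are not given in the sources used here. The labels call the replicates biological without naming separate mice, so p-values measure the spread between these arrays.

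Hepatic stellate cells lie in the space between hepatocytes and the sinusoidal endothelium, where they store vitamin A as retinyl esters in the healthy liver. On injury they can become contractile, matrix-producing cells that deposit fibrillar collagens and small proteoglycans, a process driven by the TGF-beta and PDGF pathways. The product of Ikbkg, Nemo, is a scaffold that the IkB kinases need to switch on NF-kB, and its loss from liver parenchymal cells is known to cause chronic liver injury, fibrosis and tumours. T and NKT cells carry the chemokine receptor Cxcr6. Since the arrays measured bulk RNA of a hepatocyte isolate, more cells of a type and more RNA per cell cannot be told apart in any of the values below.

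Values are the deposited log2 signals, on which the medians of the 11 arrays lay between 5.19 and 5.38. Ikbkg, the targeted gene, had log2 signals of 8.76, 8.90 and 9.49 in double KO, 9.33, 9.18 and 9.45 in Nemo KO, 9.18, 9.12 and 9.16 in Cxcr6 KO and 9.02 and 9.47 in wildtype. Cxcr6 lay between 4.94 and 5.56 on every array. The probes of both genes may lie outside the deleted stretch. Cxcr6 also lay near the array medians in the groups that carry it, where a loss cannot show. Neither gene can therefore serve as a check on the labels. Hepatocyte markers averaged 18.26 to 18.37 in double KO, 18.26 to 18.42 in Nemo KO, 18.29 to 18.42 in Cxcr6 KO and 18.26 to 18.38 in wildtype (14 genes), as the cell type label has it.

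Matrix and stellate genes stood highest in hepatocyte isolates without both Nemo and Cxcr6 (highest mean in 25 of 28 tested genes, against 20.1% of all genes tested) and mostly lowest in isolates without Cxcr6 alone (19 of 28, against 23.5%). These counts rank group means, that of wildtype over 2 arrays. No listed gene was called in double KO against Nemo KO or in Cxcr6 KO against wildtype. In double KO against Cxcr6 KO, 17 genes rose and none fell, by 1.24-fold (Mmp2) to 14.6-fold (Igfbp7). The small proteoglycan genes Dcn and Bgn, the secreted binding protein gene Igfbp7, the lectin gene Lgals1 and the stellate genes Rgs5 and Lrat were the 6 that passed under every alternative processing and with any single array left out. Testing was limited to genes with a group mean of at least 5.27 (the median over rows of their means) in 1 group or more, and a gene was called at an adjusted p below 0.05 (limma fit over all 4 groups, Benjamini-Hochberg adjustment over 18337 genes). Of the 37 genes with a row, 28 were tested, of which 17 were called, while 7.41% of all genes tested were called in this comparison, 3.44% higher and 3.96% lower. Col5a1, Col6a1, Col6a2, Timp1, Lox, Loxl1, Tgfb2, Des and Acta2 stayed below that level in every group. Mmp2 and Tagln reached it in double KO alone, so a difference in double KO was built into their being tested. Both are among the 25 with the highest mean there, and without them 16 of 26 genes were called. The median log2 difference was 0.67 over the 28 genes, 0.74 over the 26 and -0.06 over all genes tested. The count of 17 fell to 8 without double KO replicate 2, to 6 without double KO replicate 3, to 9, 6 and 6 without Cxcr6 KO replicates 1, 2 and 3, and to 10 without Nemo KO replicate 1, which is not in the comparison but in the pooled spread.

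**Figure D1:**
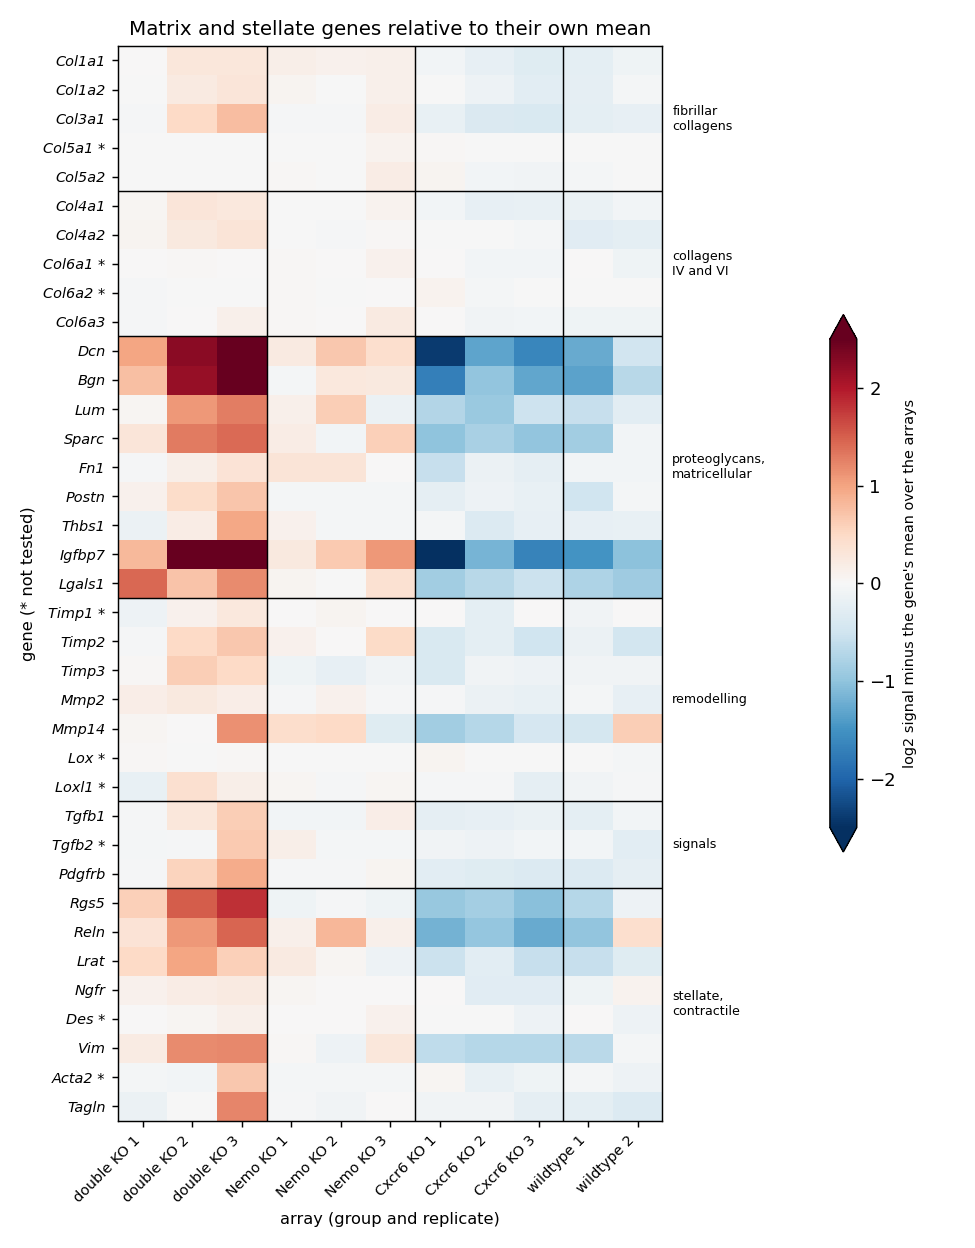
Log2 signal of the 37 matrix and stellate genes (rows, grouped by role) on the 11 arrays (columns), as the difference from each gene's own mean over the arrays; an asterisk marks the 9 genes that were not tested. Dcn, Bgn and Igfbp7 span the widest ranges (4.91, 4.33 and 5.38), and double KO replicate 1 is paler than replicates 2 and 3.

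The promoters of the steady genes are shown because these genes moved together. Of the 39 genes, 26 had a promoter in the RefSeq-based table of build GRCm38.p6. Dcn and Lgals1 were not among them. The 250 bases before the start site are printed for the 4 called genes with the smallest p that have an entry, Rgs5 (chr1:169655251-169655500, plus strand), Bgn (chrX:73483351-73483600, plus strand), Lrat (chr3:82903975-82904224, minus strand) and Igfbp7 (chr5:77408046-77408295, minus strand). Capitals mark matches to 4 motifs searched on both strands, the TATA box TATAAA, the CCAAT box CCAAT, the GC box GGGCGG and the AP-1 site TGACTCA.
Rgs5: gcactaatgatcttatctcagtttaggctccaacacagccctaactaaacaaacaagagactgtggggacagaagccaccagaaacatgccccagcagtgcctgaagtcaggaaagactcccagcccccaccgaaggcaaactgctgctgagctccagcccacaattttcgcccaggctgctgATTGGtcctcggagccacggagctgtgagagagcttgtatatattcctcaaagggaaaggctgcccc
Bgn: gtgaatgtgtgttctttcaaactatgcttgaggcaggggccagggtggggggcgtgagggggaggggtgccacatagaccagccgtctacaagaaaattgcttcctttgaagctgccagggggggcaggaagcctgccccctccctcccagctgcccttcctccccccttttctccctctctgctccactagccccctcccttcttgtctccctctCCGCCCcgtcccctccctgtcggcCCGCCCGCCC
Lrat: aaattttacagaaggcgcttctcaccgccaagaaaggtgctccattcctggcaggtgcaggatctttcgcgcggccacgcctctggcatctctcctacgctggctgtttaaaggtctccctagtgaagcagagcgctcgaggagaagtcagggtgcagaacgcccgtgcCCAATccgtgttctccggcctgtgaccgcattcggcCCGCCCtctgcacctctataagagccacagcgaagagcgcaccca
Igfbp7: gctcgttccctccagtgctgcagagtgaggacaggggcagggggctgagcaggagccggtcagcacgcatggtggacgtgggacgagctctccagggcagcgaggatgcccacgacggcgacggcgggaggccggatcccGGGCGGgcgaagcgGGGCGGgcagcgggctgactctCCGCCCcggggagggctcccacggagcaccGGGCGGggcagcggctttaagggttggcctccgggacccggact
Igfbp7 held 4 GC boxes, Bgn 3 (of which 2 overlap), Lrat 1 GC box and 1 CCAAT box, and Rgs5 1 CCAAT box on the minus strand. A GC box stood in 57.1% of the 28 promoters of listed genes and in 32.7% of all 32851 promoters of this length, a CCAAT box in 35.7% and 33.8%, a TATA box in 14.3% and 12.4%, and an AP-1 site in 3.57% and 4.46%. A match is a run of letters and says nothing about a factor bound there.

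Proteoglycans and matricellular proteins, which bind collagen fibrils and growth factors without being structural fibres themselves, held the largest changes, with 7 of 9 genes called and a median of 1.81. Dcn encodes decorin, a leucine-rich proteoglycan that binds collagen fibrils and TGF-beta. Its log2 signals were 9.86, 11.14 and 11.39 in double KO, 9.11, 9.55 and 9.31 in Nemo KO, 6.48, 7.56 and 7.25 in Cxcr6 KO and 7.63 and 8.41 in wildtype. No array of a group overlapped with the next one in the order double KO, Nemo KO, wildtype, Cxcr6 KO. Dcn rose by 3.70 ± 0.42 (SE) on the log2 scale in double KO against Cxcr6 KO, 13.0-fold (adjusted p = 0.00629).

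Bgn encodes biglycan, the closest relative of decorin. Its log2 signals were 9.36, 10.79 and 11.23 in double KO, 8.55, 8.86 and 8.84 in Nemo KO, 6.90, 7.62 and 7.30 in Cxcr6 KO and 7.27 and 7.91 in wildtype. Both Nemo-deleted groups lay above both groups with Nemo, and the Cxcr6 KO and wildtype arrays overlapped. The rise in double KO against Cxcr6 KO was 3.19 ± 0.43, or 9.10-fold (adjusted p = 0.00954). Lum, the gene of the related proteoglycan lumican, had 6.03, 7.05 and 7.26 in double KO, 6.09, 6.58 and 5.83 in Nemo KO, 5.23, 5.05 and 5.46 in Cxcr6 KO and 5.40 and 5.71 in wildtype. It rose by 1.53 ± 0.31 (2.89-fold, adjusted p = 0.0255), with Cxcr6 KO near the array medians, and the call was lost without double KO replicate 2 or 3 or any Cxcr6 KO array (adjusted p up to 0.093).

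Igfbp7 encodes a secreted protein that binds insulin-like growth factors and is made by endothelial and mesenchymal cells. Its log2 signals were 11.62, 13.40 and 13.50 in double KO, 11.06, 11.46 and 11.89 in Nemo KO, 8.12, 9.65 and 9.15 in Cxcr6 KO and 9.33 and 9.78 in wildtype. The lowest double KO array lay below the highest Nemo KO array, while every array without Nemo lay above every array with it. The rise in double KO against Cxcr6 KO, 3.87 ± 0.54 (14.6-fold, adjusted p = 0.0101), had the largest size on the list.

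Lgals1 encodes galectin-1, a secreted lectin found in many mesenchymal and immune cells. It had 10.87, 10.13 and 10.60 in double KO, 9.50, 9.42 and 9.80 in Nemo KO, 8.55, 8.74 and 8.89 in Cxcr6 KO and 8.65 and 8.53 in wildtype. The double KO, Nemo KO and Nemo-intact arrays formed 3 levels with no overlap, and unlike most of the list double KO replicate 1 was the highest. Lgals1 rose by 1.81 ± 0.19 in double KO against Cxcr6 KO (3.51-fold, adjusted p = 0.00553). Sparc, the gene of a collagen-binding matricellular glycoprotein, had 8.87, 9.86 and 9.99 in double KO, 8.75, 8.51 and 9.17 in Nemo KO, 7.56, 7.77 and 7.59 in Cxcr6 KO and 7.70 and 8.51 in wildtype. It rose by 1.93 ± 0.32 (3.81-fold, adjusted p = 0.0154), and wildtype replicate 2 equalled the lowest Nemo KO array at 8.51.

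The 3 other genes of this role showed smaller steps. Postn, the gene of periostin, rose by 0.61 ± 0.15 (adjusted p = 0.0473), with 5.50, 5.85 and 6.08 in double KO and 5.16, 5.25 and 5.20 in Cxcr6 KO, and lost its call in 8 of 18 alternatives (adjusted p up to 0.137). The difference for Thbs1, the gene of thrombospondin-1 that can activate latent TGF-beta, was 0.53 ± 0.24 (adjusted p = 0.176), with double KO replicate 3 at 6.34 and the other 10 arrays between 5.04 and 5.55. Fn1, the gene of fibronectin, which hepatocytes themselves secrete into plasma, lay between 17.03 and 17.94 on all arrays, close to the upper end of the scale. Its difference was 0.47 ± 0.14 (adjusted p = 0.0733).

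**Figure D2:**
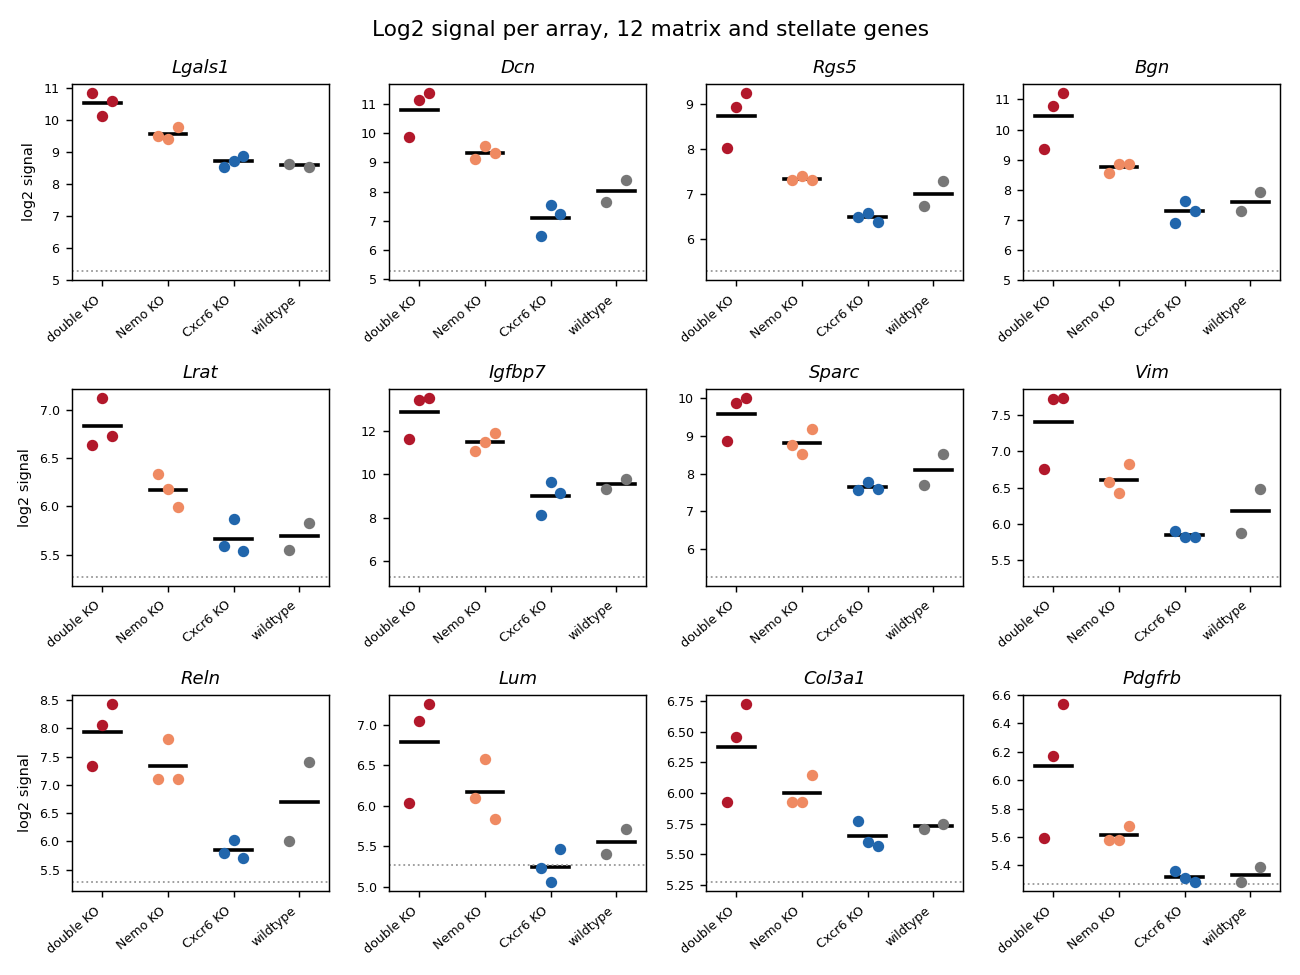
Log2 signal (y axis, scaled per gene) on each array (points) by group, with the group mean (line) and the level that a group mean had to reach for testing (dotted, 5.27), for the 12 matrix and stellate genes with the smallest p in double KO against Cxcr6 KO. For all 12 the lowest double KO array lies above the highest Cxcr6 KO array, and for Dcn, Bgn, Lgals1, Rgs5 and Lrat it also lies above every Nemo KO array.

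Of the 7 tested collagen genes 2 rose, both by small steps. Among the 4 tested fibrillar collagens that was Col3a1, which rose by 0.73 ± 0.18 (1.66-fold, adjusted p = 0.0427), with 5.93, 6.46 and 6.73 in double KO, 5.93, 5.93 and 6.15 in Nemo KO, 5.77, 5.60 and 5.57 in Cxcr6 KO and 5.71 and 5.75 in wildtype. Its call was lost in 8 of 19 alternatives (adjusted p up to 0.134). Col1a1 and Col1a2, which encode both chains of type I collagen, the main fibre of liver scars, did not pass in the main fit. Col1a1 had 6.0, 6.27 and 6.27 in double KO, 6.14, 6.10 and 6.12 in Nemo KO, 5.92, 5.80 and 5.70 in Cxcr6 KO and 5.75 and 5.88 in wildtype, so both Nemo-deleted groups lay above both others by a small step (0.37 ± 0.10 in double KO against Cxcr6 KO, adjusted p = 0.0525). Col1a1 passed with arrays centred on their medians, after quantile normalization and with a trended prior. Of all genes tested, 3.56% to 3.59% were called higher under those settings. For Col1a2 the difference was 0.30 ± 0.11 (adjusted p = 0.102). Col5a2 differed by 0.01 ± 0.08 (adjusted p = 0.961), and Col5a1, whose product starts type I fibrils together with that of Col5a2, lay between 5.0 and 5.11 on all arrays.

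Col4a1 and Col4a2, a gene pair for the chains of basement membrane collagen, showed steps of a similar size. Col4a1 rose by 0.36 ± 0.09 (1.28-fold, adjusted p = 0.0465), with 6.12, 6.37 and 6.33 in double KO and 6.01, 5.86 and 5.88 in Cxcr6 KO, and lost its call in 10 of 19 alternatives. Col4a2 differed by 0.24 ± 0.08 (adjusted p = 0.0909), with 6.07, 6.25 and 6.33 in double KO, 5.99, 5.98 and 6.03 in Nemo KO, 5.99, 5.99 and 5.95 in Cxcr6 KO and 5.72 and 5.76 in wildtype, the lowest group here. The 3 genes of the microfibrillar collagen VI, Col6a1, Col6a2 and Col6a3, lay between 4.99 and 5.67 on all arrays, and the tested one, Col6a3, differed by 0.08 ± 0.08 (adjusted p = 0.548). Several of these rows carry identical values on different arrays, 9 of the 11 for Col5a1 and 5 of the 11 for Col5a2, Col6a1 and Col6a2 each. At least 1 value was identical on 2 or more arrays to the last deposited digit, beyond the digits printed here, in 16 of the 28 tested genes and in 49.4% of all genes tested. The spread of such rows can be understated.

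Of the 4 tested remodelling genes 3 rose, by small steps, or 2 of 3 without Mmp2. Timp2, an inhibitor of matrix metalloproteinases, had 7.02, 7.55 and 7.71 in double KO, 7.15, 7.06 and 7.53 in Nemo KO, 6.67, 6.80 and 6.54 in Cxcr6 KO and 6.89 and 6.58 in wildtype. It rose by 0.76 ± 0.19 (1.69-fold, adjusted p = 0.0489). Timp3, the matrix-bound member of the family, rose by 0.58 ± 0.15 (adjusted p = 0.0462), with 5.64, 6.22 and 6.10 in double KO, 5.50, 5.39 and 5.52 in Nemo KO, 5.22, 5.52 and 5.47 in Cxcr6 KO and 5.52 on both wildtype arrays. The 3 double KO arrays stood apart from the other 8 for Timp3 but not for Timp2. Mmp2, which encodes gelatinase A, rose by 0.31 ± 0.08 (adjusted p = 0.0477), with 5.26, 5.32 and 5.25 in double KO and 5.05, 4.94 and 4.90 in Cxcr6 KO, at the level of the array medians. The Timp2, Timp3 and Mmp2 calls were lost in 10 of 19, 9 of 18 and 9 of 18 alternatives.

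Mmp14, the membrane-bound activator of pro-gelatinase A, had 8.71, 8.67 and 9.81 in double KO, 9.11, 9.15 and 8.36 in Nemo KO, 7.79, 7.94 and 8.24 in Cxcr6 KO and 8.22 and 9.27 in wildtype. Its difference of 1.08 ± 0.38 in double KO against Cxcr6 KO did not pass (adjusted p = 0.101), and wildtype replicate 2 lay above 2 of the double KO arrays. Timp1, an inhibitor often raised in scarring liver, lay between 3.83 and 4.34 on all arrays. The collagen cross-linking oxidase genes Lox and Loxl1 lay between 4.46 and 5.09.

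Of the 2 tested signalling genes 1 rose. Pdgfrb, the PDGF receptor of stellate cells and pericytes, had 5.59, 6.17 and 6.54 in double KO, 5.58, 5.58 and 5.68 in Nemo KO, 5.36, 5.31 and 5.28 in Cxcr6 KO and 5.28 and 5.39 in wildtype. It rose by 0.78 ± 0.20 (1.72-fold, adjusted p = 0.0454). Double KO replicate 1 lay within the Nemo KO range, and the call was lost in 9 of 18 alternatives. Tgfb1, the main profibrotic cytokine, differed by 0.49 ± 0.15 (adjusted p = 0.0739), with 5.80, 6.11 and 6.44 in double KO and 5.60, 5.62 and 5.65 in Cxcr6 KO. It passed with a replicate term in the fit, where 3.51% of all genes tested were called higher. Tgfb2 lay between 4.38 and 5.31, with double KO replicate 3 the highest.

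Of the 6 tested genes that mark stellate or contractile cells 4 rose, Rgs5, Lrat, Reln and Vim, while the contractile genes did not pass or stayed below the tested level. Rgs5, a regulator of G-protein signalling found in pericytes and stellate cells, had 8.02, 8.94 and 9.26 in double KO, 7.31, 7.40 and 7.31 in Nemo KO, 6.48, 6.58 and 6.38 in Cxcr6 KO and 6.72 and 7.29 in wildtype. The 4 groups did not overlap. It rose by 2.26 ± 0.28 in double KO against Cxcr6 KO (4.79-fold, adjusted p = 0.00829). Lrat, the enzyme that forms retinyl esters for storage, had 6.63, 7.12 and 6.73 in double KO, 6.34, 6.18 and 5.99 in Nemo KO, 5.59, 5.87 and 5.54 in Cxcr6 KO and 5.55 and 5.83 in wildtype. It rose by 1.16 ± 0.16 (2.24-fold, adjusted p = 0.00964), and the double KO, Nemo KO and Nemo-intact arrays again formed 3 levels.

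Reln encodes reelin, a secreted glycoprotein of stellate cells that also occurs in lymphatic endothelium. It had 7.33, 8.06 and 8.44 in double KO, 7.10, 7.81 and 7.10 in Nemo KO, 5.80, 6.02 and 5.71 in Cxcr6 KO and 6.0 and 7.40 in wildtype, where replicate 2 lay within the Nemo KO range. Reln rose by 2.10 ± 0.39 (4.29-fold, adjusted p = 0.0208). Vim, the intermediate filament gene of mesenchymal cells, rose by 1.56 ± 0.26 (2.94-fold, adjusted p = 0.0163), with 6.75, 7.72 and 7.73 in double KO, 6.57, 6.42 and 6.83 in Nemo KO, 5.90, 5.82 and 5.82 in Cxcr6 KO and 5.87 and 6.48 in wildtype. Ngfr, the low-affinity nerve growth factor receptor, differed by 0.36 ± 0.10 (adjusted p = 0.0554) and passed under the settings named for Col1a1.

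Des, the desmin gene used to identify stellate cells in rodents, lay between 4.61 and 4.86 on all arrays. Acta2, the smooth muscle actin of activated stellate cells, had 4.89, 4.87 and 5.61 in double KO and lay between 4.75 and 4.99 on the other 8 arrays. Tagln, another contractile gene, had 4.93, 5.08 and 6.30 in double KO and 4.75 to 5.10 elsewhere (0.48 ± 0.30 in double KO against Cxcr6 KO, adjusted p = 0.317). For both, double KO replicate 3 alone stood out. The stellate part of the label thus rests on Rgs5, Reln and Lrat, while the defining markers Des and Acta2 had group means below the tested level throughout.

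**Figure D3:**
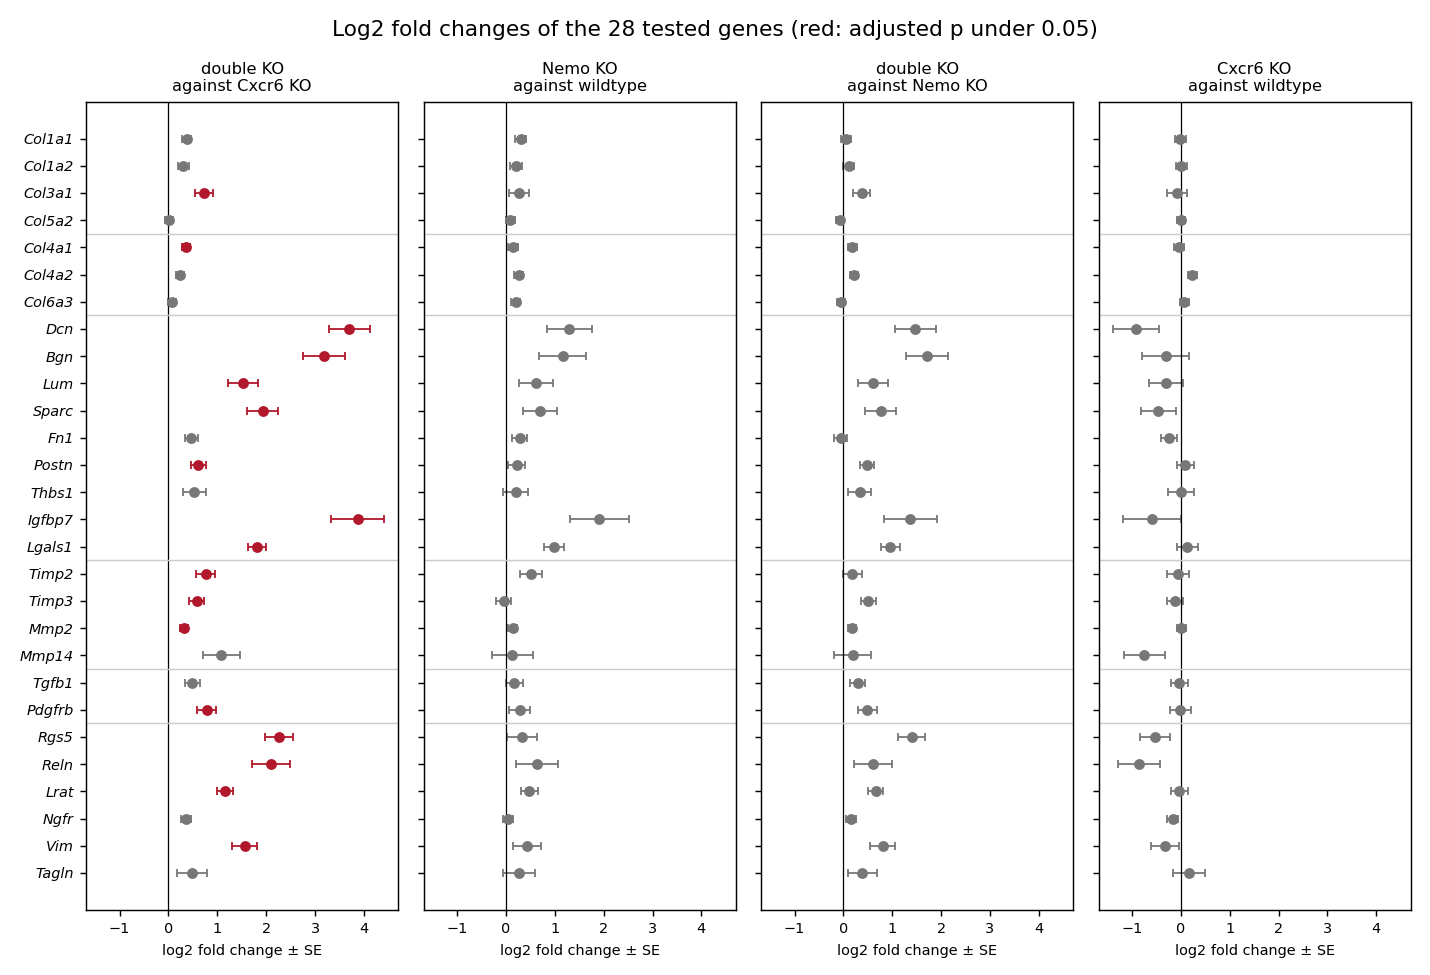
Log2 fold change ± SE (x axis) of the 28 tested matrix and stellate genes (y axis, grouped by role) in 4 comparisons, with genes at an adjusted p below 0.05 in red. All 17 red points lie in double KO against Cxcr6 KO, and the 3 other panels hold none.

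Nemo deletion in mice with Cxcr6 gave a median log2 difference of 0.28, with 27 of the 28 genes positive, against a median of -0.04 over all genes tested. No listed gene passed in Nemo KO against wildtype (limma, 0 of 28), where 0.0491% of all genes tested were called higher and 0.109% lower (0.158% in all). At an unadjusted p below 0.05, 8 of the 28 were higher, against 4.63% of all genes tested. These were Lgals1 (0.98 ± 0.21, adjusted p = 0.0654), Igfbp7 (1.91 ± 0.60, adjusted p = 0.102), Dcn (1.30 ± 0.47, adjusted p = 0.132), Bgn (1.16 ± 0.48, adjusted p = 0.173), Lrat (0.48 ± 0.18, adjusted p = 0.141), Col1a1 (0.30 ± 0.11), Col4a2 (0.26 ± 0.09) and Timp2 (0.51 ± 0.22). In 19 of the 28 genes every Nemo KO array lay above both wildtype arrays, which held for 11.3% of all genes tested. In double KO against Cxcr6 KO this separation was seen in 23 of the 28, against 13.3%. Both held together for 15 genes (53.6%, against 3.12% of all genes tested). Mmp2, tested through double KO alone, is among the 23 and the 15. The listed genes moved together between arrays of a group, so these are not 15 separate observations. Lgals1 passed once arrays were centred on their medians, where 0.487% of all genes tested were called higher. That setting called 1319 genes in either direction, in place of 29. The wildtype group has 2 arrays, and the replicates differed from each other more than those of other groups (correlation over all rows 0.984, against 0.990 to 0.995).

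Cxcr6 loss, or the line that carries it, was tested in Nemo-deleted livers by double KO against Nemo KO. No listed gene passed (limma, 0 of 28, against 0.594% of all genes called, 0.365% higher and 0.229% lower), while 13 had an unadjusted p below 0.05 and were higher, against 9.70% of all genes tested. The smallest adjusted p were those of Lgals1 (0.96 ± 0.19, adjusted p = 0.0642) and Rgs5 (1.40 ± 0.28, adjusted p = 0.0655), followed by Lrat (0.66 ± 0.16, adjusted p = 0.110), Bgn (1.71 ± 0.43, adjusted p = 0.121), Timp3 (0.51 ± 0.15, adjusted p = 0.152) and Dcn (1.47 ± 0.42, adjusted p = 0.153). The 3 double KO arrays lay above all 3 Nemo KO arrays for 10 of the 28 genes (12.9% of all genes tested), namely Col4a2, Dcn, Bgn, Postn, Lgals1, Timp3, Mmp2, Rgs5, Lrat and Ngfr, and below them for none (9.94%). For these 10 the double KO arrays also lay above the other 8 arrays, which held for 2.29% of all genes tested. Mmp2, tested through double KO alone, is among the 10 and among the 13 with an unadjusted p below 0.05. The count of calls moved with single arrays. Without double KO replicate 1, Bgn, Pdgfrb, Rgs5, Timp3 and Vim passed, without double KO replicate 2 Lgals1 passed, and after centring of the arrays Lgals1 and Rgs5 passed. Centring moved the share of all genes called higher to 0.952% in place of 0.365%. The shares with an array left out are not given here.

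In livers with Nemo the comparison of Cxcr6 KO with wildtype gave no call (limma, 0 of 28, against 0.175% of all genes called higher and 0.0818% lower), and 1 gene, Col4a2, had an unadjusted p below 0.05 and was higher (0.23 ± 0.09, adjusted p = 0.367), against 5.93% of all genes tested. The median log2 difference was -0.05 over the 28 genes and 0.01 over all genes tested. Dcn (-0.92 ± 0.47), Reln (-0.86 ± 0.43), Mmp14 (-0.75 ± 0.42), Igfbp7 (-0.59 ± 0.60) and Rgs5 (-0.53 ± 0.31) had lower means in Cxcr6 KO, with adjusted p between 0.519 and 0.794. Every Cxcr6 KO array lay below both wildtype arrays for Dcn, Fn1 and Rgs5 and above both for Col4a2, Col6a3 and Tagln (11.2% and 12.7% of all genes tested). Together with the double KO arrays above the Nemo KO arrays, the separation below wildtype was seen for Dcn and Rgs5, against 1.02% of all genes tested.

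The interaction asks whether the Nemo difference in the line without Cxcr6 exceeds that in the line with it. No listed gene passed, nor did any of the 18337 genes (limma). At an unadjusted p below 0.05, 10 of the 28 had a larger Nemo difference without Cxcr6, against 6.29% of all genes tested. Rgs5 had the largest ratio of value to error (1.93 ± 0.42, adjusted p = 0.251), and the others were Dcn (2.40 ± 0.63, adjusted p = 0.265), Bgn, Sparc, Igfbp7, Lgals1, Timp3, Reln, Lrat and Vim (0.63 to 2.02, adjusted p between 0.301 and 0.390). Without double KO replicate 1, Rgs5 passed. Group means stood in the order double KO, Nemo KO, wildtype, Cxcr6 KO for 17 of the 28 genes, against 6.41% of all genes tested. None of the 17 was called between neighbours in this order, although the arrays of Dcn and Rgs5 did not overlap between any of them, and some of the 17 passed in double KO against Nemo KO under the alternatives named above.

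Among 6 lists of other matrix and signalling genes some rose and none fell in double KO against Cxcr6 KO, and none was called in the 3 other comparisons. The counts stand against 3.44% of all genes tested called higher. Of 17 tested basement membrane genes 3 rose, the laminin linker Nid1 (3.71 ± 0.69, adjusted p = 0.0215), the laminin chain Lama4 and perlecan, Hspg2. Nid1 had 8.62, 9.21 and 10.84 in double KO and 5.82, 5.80 and 5.92 in Cxcr6 KO, while wildtype was split at 5.83 and 8.24. Of 11 further proteoglycans and glycoproteins, 4 rose, Prelp (3.04 ± 0.41, adjusted p = 0.00954), the secreted spondin Spon2, the fibulin gene Efemp1 and the Sparc relative Sparcl1. Prelp, a relative of decorin, had 8.20, 9.65 and 9.88 in double KO, 7.33, 7.53 and 7.84 in Nemo KO, 6.04, 6.36 and 6.21 in Cxcr6 KO and 6.38 and 7.24 in wildtype. Of 8 minor collagens, the fibril-associated Col14a1 rose (2.08 ± 0.30, adjusted p = 0.0113). Of 13 collagen-processing genes, the cross-linking transglutaminase Tgm2 rose (2.03 ± 0.49, adjusted p = 0.0411), and of 11 proteases and inhibitors, Adamts5 (0.90 ± 0.14) and the macrophage elastase Mmp12 (2.12 ± 0.50) rose. Of 26 genes of TGF-beta, PDGF and integrin signalling, 8 rose, among them the PDGF ligands Pdgfd (1.08 ± 0.13, adjusted p = 0.00839) and Pdgfc (1.93 ± 0.37, adjusted p = 0.0219) and the TGF-beta co-receptor and endothelial gene Eng (2.12 ± 0.37, adjusted p = 0.0181). Pdgfd and Adamts5 reached the tested level in double KO alone, so a difference in double KO was built into their being tested. The medians of these 6 lists ran from -0.05 for the minor collagens to 0.63 for the signalling genes.

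A second list of 18 stellate markers had 10 tested genes, of which 4 rose, the hepatocyte growth factor gene Hgf (2.38 ± 0.34, adjusted p = 0.0118), the bone morphogenetic protein gene Bmp5 (1.10 ± 0.21) and the collectin genes Colec10 (0.78 ± 0.17) and Colec11 (0.79 ± 0.20, adjusted p = 0.0496). Hgf had 7.53, 8.43 and 9.23 in double KO, 6.93, 7.16 and 7.11 in Nemo KO, 5.81, 6.21 and 6.04 in Cxcr6 KO and 6.45 and 6.31 in wildtype. Cygb, a globin gene of stellate cells, did not pass (0.23 ± 0.12, adjusted p = 0.218), and Gfap and Hhip lay between 4.59 and 4.89 and Hand2 between 4.75 and 5.60 on all arrays. The log2 of the summed signal of the 16 with a row ran from 13.28 to 14.22 in double KO, 14.05 to 14.64 in Nemo KO, 12.86 to 13.35 in Cxcr6 KO and 13.98 to 14.34 in wildtype, so double KO was not above Nemo KO or wildtype by this measure. Such a sum follows the brightest rows. The mean log2 signal ran from 6.31 to 6.69 in double KO, 6.33 to 6.42 in Nemo KO, 5.98 to 6.08 in Cxcr6 KO and 6.3 to 6.4 in wildtype. In double KO against Nemo KO, 7 of the 10 tested genes were positive (median 0.29, lowest -0.68, against a median of 0.04 over all genes tested). In double KO against Cxcr6 KO 9 of the 10 were positive, the lowest at -0.08. The lowest difference was -1.67 in Nemo KO against wildtype (9 of 10 positive) and -2.85 in Cxcr6 KO against wildtype (2 of 10 positive). No gene of this list was called in those 2 comparisons. Of 5 tested portal fibroblast markers 1 rose (the ectonucleotidase gene Entpd2, 0.45 ± 0.09), and of 2 tested smooth muscle markers 1 rose (smoothelin, Smtn, 0.54 ± 0.13), against the same 3.44% of all genes tested. The portal fibroblast genes went both ways (3 of 5 positive, median 0.02).

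Markers of other non-parenchymal cells moved with these genes. In double KO against Cxcr6 KO, 3.44% of all genes tested were called higher and 3.96% lower, with a median of -0.06. Of 21 tested endothelial markers, 16 rose in this comparison (median 1.33), led by Lyve1, Pecam1, Tek and Ptprb. The log2 of the summed signal of the 23 with a row ran from 12.62 to 13.74 in double KO, 11.73 to 12.31 in Nemo KO, 10.77 to 11.46 in Cxcr6 KO and 11.34 to 11.44 in wildtype. Of 23 tested Kupffer cell and macrophage markers, 8 rose (median 1.18), and the summed signal of all 24 ran from 13.33 to 14.06 in double KO, 13.24 to 13.93 in Nemo KO, 11.61 to 12.00 in Cxcr6 KO and 11.33 to 13.67 in wildtype. Of 9 tested cholangiocyte markers, 5 rose (median 1.07), and the summed signal of the 11 with a row ran from 9.93 to 10.89 in double KO, 9.47 to 9.61 in Nemo KO, 9.20 to 9.34 in Cxcr6 KO and 9.22 to 9.82 in wildtype. Of the T and NK cell markers 4 of 11 with a row were tested and none was called, with mean log2 signals of 4.85 to 5.10 on all arrays. None of 4 tested neutrophil markers was called, and of 3 tested erythroid and platelet markers Alas2, an enzyme of haem synthesis in red cell precursors, fell by 1.60 ± 0.27 on the log2 scale (adjusted p = 0.0163). None of 14 tested hepatocyte markers was called (median -0.01). Their means of 18.26 to 18.42 lie close to the ceiling of 19.93, so a change in them could be hard to see. In Nemo KO against wildtype they ran from -0.84 to 0.83, with 7 of 14 positive and none called. Hnf4a, a hepatocyte gene farther from the ceiling (12.24 to 13.65), had -0.84 ± 0.20 there (adjusted p = 0.0736, limma). In double KO against Nemo KO, where no listed matrix or stellate gene passed, the endothelial receptor gene Tek (1.10 ± 0.18, adjusted p = 0.0447) and the cholangiocyte marker Tspan8 (1.02 ± 0.17, adjusted p = 0.0487) rose and Alas2 fell by 1.54 ± 0.27 on the log2 scale (adjusted p = 0.0487). All 21 tested endothelial markers had positive differences there (median 0.71, against 0.04 over all genes tested). No marker row is at 0 on this scale, and the part these cells have in the matrix and stellate results was not tested.

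**Figure D4:**
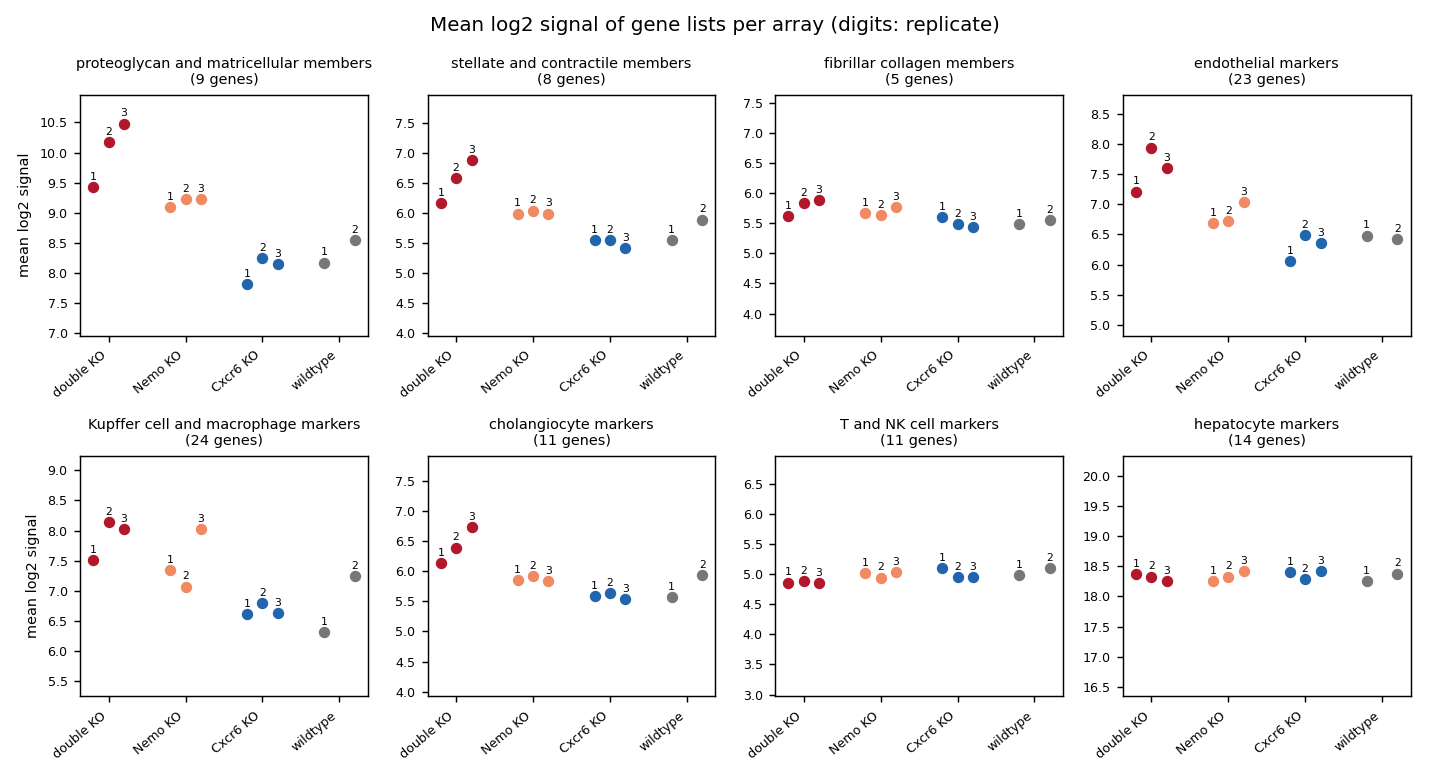
Mean log2 signal (y axis, each panel spanning the same number of log2 units) of 8 gene lists on each array (points, the digit giving the replicate) by group. Proteoglycan and matricellular genes run from 9.43 to 10.48 in double KO and from 7.82 to 8.24 in Cxcr6 KO, endothelial markers from 7.21 to 7.94 and from 6.06 to 6.49, and fibrillar collagens from 5.62 to 5.89 and from 5.43 to 5.60.

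Arrays of a group differed along the same genes. Double KO replicate 1 was the lowest of its group for 25 of the 28 tested genes, against 33.7% of all genes tested, with Lgals1, Mmp2 and Mmp14 as the exceptions. The means of the endothelial, macrophage and cholangiocyte markers were also lowest on that array (7.21, 7.51 and 6.14). Wildtype replicate 2 lay above replicate 1 for 22 of the 28 genes, against 40.5% of all genes tested. On the wildtype arrays the macrophage markers averaged 6.31 on replicate 1 and 7.25 on replicate 2 and the cholangiocyte markers 5.57 and 5.93, while the endothelial markers averaged 6.48 and 6.42. The widest within-group spreads on the list were those of Igfbp7, Bgn and Dcn in double KO (SD 1.06, 0.98 and 0.82) and of Reln in wildtype (SD 0.99).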

How the data were processed

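Per the submitters' processing notes, the authors processed the arrays with Affymetrix Expression Console, RMA (background correction, quantile normalization, probe summary) and Transcriptome Analysis Console, versions not given. A whole-transcript kit labelled 300 ng of RNA, per the labels' protocols. The deposited values are log2 signals in a table of 65956 rows and 11 arrays. For the rows' genome build, the sources used here give nothing. Values reach a ceiling of 19.93, and precision is limited by how many arrays there are.

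Row names came from the platform annotation (30604 rows with 1 gene, 2146 with several, 33206 with none), updated through gene identifiers against the RefSeq table of GRCm38.p6 (22818 rows matched, 827 symbols changed). Each gene took its row with the highest mean. All 4 groups were fitted with limma 3.58.1 in R 4.3.3 (1 mean per group, eBayes, 7 residual degrees of freedom, prior 2.13), two-sided, with Benjamini-Hochberg adjustment over 18337 genes. The fit was tested on simulated data. Genes named outside the list are, per list and comparison, up to 4 with the smallest p among those called, and any others were chosen after their values were seen. The genes and lists were chosen with earlier results of these data known. Alternatives were other normalizations, filters, priors, row rules, fits of the compared groups alone, a replicate term and leaving out each array.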

Additional observations from a re-analysis of the deposited data

Results flagged for a closer look

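For Dcn and Rgs5 every double KO array lay above every Nemo KO array while every Cxcr6 KO array lay below both wildtype arrays, so on these arrays the differences tied to Cxcr6 loss and line had opposite signs with and without Nemo deletion. This held for 2 of the 28 tested genes and for 1.02% of all genes tested, and the 2 were picked for showing it. Separation below wildtype alone was seen for 3 of the 28, against 11.2% of all genes tested. Cxcr6 KO against wildtype had adjusted p = 0.521 for Dcn and 0.595 for Rgs5 (limma). Double KO against Nemo KO had 0.153 and 0.0655. The test of the opposite signs, the interaction, was 2.40 ± 0.63 for Dcn (adjusted p = 0.265, limma) and 1.93 ± 0.42 for Rgs5 (adjusted p = 0.251, limma), so neither passed over all genes. No group had the 4 or more arrays that a test for single outlying arrays needs.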

How the results depend on the processing

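In double KO against Cxcr6 KO, leaving out single arrays gave 6 to 19 called genes in place of 17, and no filter on low values gave 11, with more genes tested. The other 7 alternatives gave 12 to 19, the replicate block 15. Of 319 values of single called genes under an alternative, 240 kept their call, 79 lost it and none changed sign. In Nemo KO against wildtype, centring each array on its median gave 1 call in place of 0, and leaving out arrays gave 0. Over all genes, centring gave 1319 calls there in place of 29. In double KO against Nemo KO, centring gave 2 (with 201 calls over all genes in place of 109) and leaving out arrays 0 to 5. The interaction had 0 to 1 calls with arrays left out, and Cxcr6 KO against wildtype had 0 under all 19 alternatives. Centring moved the median of all genes in double KO against Nemo KO to 0.16 in place of 0.04, and in Nemo KO against wildtype to -0.12 in place of -0.04. The causes were not tested. The replicate numbers were not taken as pairs, since 6 of 15 same-numbered pairs of arrays had deviations from their group means that correlated above 0.1 (range -0.272 to 0.275). The replicate block changed no count by over 1.5 times. Values near the array medians cannot show falls, and wildtype rests on 2 arrays.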
